A study of Mus musculus with 10 samples.

Results

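The effect of levetiracetam (LEV) on hippocampal transcription was measured at 6 h after status epilepticus (SE). For this, 2 SE + LEV 6 h mice were compared with 2 SE 6 h mice. The comparison and the gene lists below were chosen with earlier results of these data known, and the mice by their labels. These mice made up 4 of the 10 libraries of the series. All 4 were adult male ICR mice, an outbred stock. All 4 received methyl scopolamine, then pilocarpine (PILO), after which SE developed, and then diazepam to stop the convulsions. SE + LEV 6 h mice additionally received a single oral dose of LEV soon after diazepam, and SE 6 h mice did not, so that each value below describes LEV on top of PILO and diazepam. Pre-SE mice (2 untreated mice, given saline in place of PILO according to the methods), 2 SE 2 days mice and 2 SE + LEV 2 days mice, the last of which had received LEV repeatedly, served as reference. Whole hippocampi were profiled by cap analysis of gene expression (CAGE), which counts the capped 5′ ends of RNA as tags, and the values are tags per 1000000 tags of the library (CPM) for 15900 listed genes.

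LEV is an antiseizure drug that binds the synaptic vesicle protein SV2A. Strong neuronal firing and calcium entry switch on immediate early genes such as Fos, Egr1, Arc and Npas4 within minutes, through factors that include CREB at cAMP-response sites, and the proteins they encode switch on later genes. Misfolded protein frees the factor HSF1 to bind heat shock elements and raise chaperone genes, and after seizures glial cells release cytokines and take on reactive states.

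The 4 libraries held 31178064 and 14594579 tags in SE 6 h mice 1 and 2, and 30096467 and 10540698 tags in SE + LEV 6 h mice 1 and 2. A count of 3 tags, taken as the limit of detection, was worth 0.0962 to 0.285 CPM in them, which covers counting error only. Marker genes of the labelled tissue were present in all 4 libraries. Prox1, a marker of dentate granule cells, ranged from 69.8 to 126 CPM, Snap25 of neurons from 1752 to 2898 CPM, and Mbp of oligodendrocytes from 1641 to 3258 CPM. The choroid plexus transcript Ttr stood at 4.33 and 3936 CPM in SE 6 h mice and at 843 and 30.0 CPM in SE + LEV 6 h mice, so its level differed widely between mice of the same group. Of the blood and leukocyte markers, Hba-a1, Ccr2 and Cd3e are not among the listed genes, and S100a8 stood at 1.44 and 2.40 CPM without LEV and at 2.29 and 2.85 CPM with it.

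At 6 h, a limited set of genes stood lower with LEV and a smaller set stood higher. The genes that stood lower included heat shock proteins (Hspa1a and Dnajb1), activity-regulated transcription factors and effectors (Npas4, Fos, Egr2, Arc and Gadd45g), neuropeptides (Crh and Nts) and cytokines (Il1rn, Il6, Ccl3 and Cxcl2). The genes that stood higher included 4 of 15 markers of resting microglia (Tmem119, Selplg, P2ry12 and P2ry13), while another 4 of them had both LEV-treated mice below both SE 6 h mice. After adjustment over all genes, however, only 2 genes passed the test: Zfp184, a zinc finger gene, and Magoh, a subunit of the exon junction complex, both of which fell.

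Values were compared on the log2(CPM + 0.1) scale with limma, in a model over all 10 libraries and 15851 genes. The difference of group means on this scale is given as logFC, with its standard error after ±, and understates the change of genes with low CPM. At an adjusted p of at most 0.05, 2 genes (0.0126% of those tested) fell with LEV and 0 (0.0%) rose. At an unadjusted p under 0.05, 542 genes (3.42%) were lower and 184 (1.16%) were higher, a ratio of 2.95. Both SE + LEV 6 h mice lay below both SE 6 h mice in 2130 genes (13.4%) and above both in 2548 genes (16.1%). With the libraries rescaled by the median of gene-wise ratios, the last 2 counts became 2616 and 1991, and the median logFC of all genes went from 0.04 to −0.01.

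The imbalance towards lower genes grew with the size of the difference. Of the genes at an unadjusted p under 0.05, 378 were lower and 92 higher by 1 or more on the logFC scale, and 97 were lower and 12 higher by 2 or more. By contrast, most genes hardly differed, with a median logFC of 0.04 over all genes and a median absolute logFC of 0.22. DESeq2 on the tags recovered from the CPM values called 69 genes lower (0.435%) and 6 higher (0.0379%). Each of these 69 genes had non-overlapping groups and a limma p under 0.05, which rest on the same mice. The exact test of edgeR called 118 genes lower, 57 of which were among the 69, whereas its quasi-likelihood test called 0 lower and 0 higher, with 553 lower and 127 higher at an unadjusted p under 0.05. On simulated tags in which no gene changed, DESeq2 called 13 genes and the exact test 30, whereas limma and the quasi-likelihood test called 0. With 200 genes changed in the simulated tags, DESeq2 found 136 of them with 29 false calls. The exact test found 135 with 45 false calls, and limma found 120 with 5. On simulated tags, DESeq2 and the exact test thus made more false calls than limma. How many of their calls in the real libraries are false was not measured. With 2 mice against 2, the smallest p that an exact permutation test of a single gene can give is 0.333.

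The unadjusted counts depended on which mice were included. Genes lower at an unadjusted p under 0.05 numbered 353 without SE 6 h mouse 2 and between 390 and 599 without any other of the 4 mice. Genes that were higher numbered 414 without SE 6 h mouse 1, 359 without SE + LEV 6 h mouse 1, 118 without SE + LEV 6 h mouse 2 and 219 without SE 6 h mouse 2. The 2 genes that passed the adjusted test became 1 without SE + LEV 6 h mouse 1, 0 without SE + LEV 6 h mouse 2 or SE 6 h mouse 1, and 9 without SE 6 h mouse 2.

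**Figure D1:**
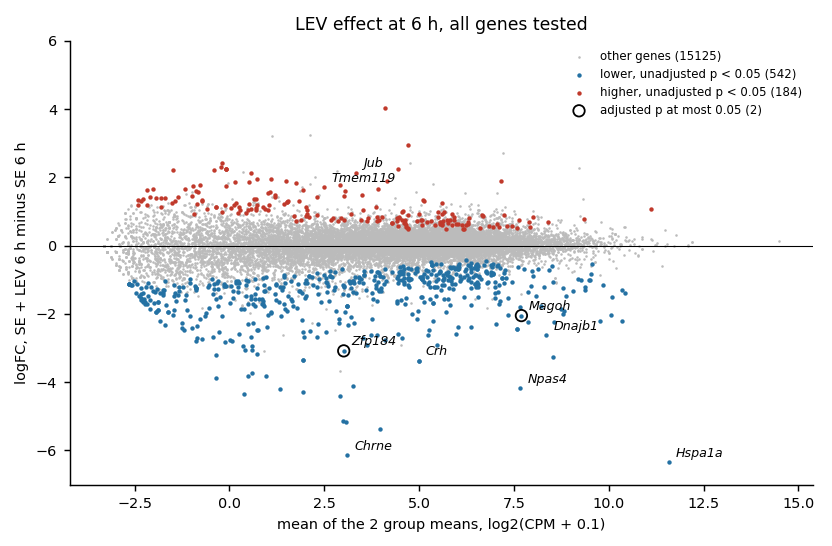
LEV effect at 6 h for all genes tested, with the mean level of the 2 groups in log2(CPM + 0.1) on the x axis and logFC (SE + LEV 6 h minus SE 6 h) on the y axis. Each point is a gene. The 542 genes lower at an unadjusted p under 0.05 (blue) reach further from 0 than the 184 higher genes (red), and the 2 circled genes passed the adjusted test.

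The plot of all genes shows the bulk of genes close to 0 at all levels, with a tail of lower genes that extends to Hspa1a at high and Chrne at low CPM.

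Zfp184 (ENSMUSG00000006720) encodes a zinc finger protein of the KRAB family and lies on chr13:22036981-22052648 (mm9, plus strand), where it overlaps 3 predicted genes of the opposite strand (Gm11280 to Gm11282). Its level was 13.7 and 14.9 CPM in SE 6 h mice, against 1.59 and 1.61 CPM in SE + LEV 6 h mice, beside 1.24 and 1.47 CPM in pre-SE mice. Both LEV-treated mice thus lay close to the untreated level, and the SE 6 h mice stood apart from every other library, since values at 2 days ran from 1.06 to 1.6 CPM. The logFC was −3.08 ± 0.35 (limma, adjusted p = 0.033), a level 8.96-fold lower with LEV.

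Magoh (ENSMUSG00000028609), on chr4:107552360-107560029 (mm9, plus strand), encodes a core subunit of the exon junction complex, which marks spliced junctions on mRNA and takes part in its export, localization and decay. SE 6 h mice had 354 and 314 CPM, SE + LEV 6 h mice 84.7 and 76.5 CPM, and pre-SE mice 45.0 and 52.4 CPM. The groups did not overlap, and the LEV-treated mice remained above both pre-SE mice. The logFC was −2.05 ± 0.23 (limma, adjusted p = 0.033), a level 4.15-fold lower with LEV. The adjusted p of Zfp184 ran from 1.98e-11 to 0.204 over the other settings with all mice and from 0.0931 to 0.286 with a mouse left out, and that of Magoh from 1.54e-09 to 0.204 and from 0.0548 to 0.406, so that neither call held without any of the 4 mice, and the genes called in those fits were others.

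Most other genes of the exon junction complex did not stand lower. Of 13 members tested, Magoh and Sap18, a peripheral subunit, were lower at an unadjusted p under 0.05 (15.4%, beside 3.42% of all genes), and 0 were higher. Both LEV-treated mice were below both SE 6 h mice in 3 of the 13 and above them in 3 (23.1% each, beside 13.4% and 16.1% of all genes). The estimates of 9 members lay above 0, and the median logFC was 0.24, beside 0.04 over all genes. Rbm8a, the direct partner of Magoh, had a logFC of −0.35, the paralog Magohb −0.19 and the core helicase Eif4a3 0.30. Sap18 stood at 181 and 474 CPM in SE 6 h mice and at 54.3 and 53.5 CPM in SE + LEV 6 h mice (logFC −2.44 ± 0.69, adjusted p = 0.63), although an annotated gene on its own strand overlaps it. Without SE 6 h mouse 2, only 1 of the 13 was lower at an unadjusted p under 0.05, and without SE + LEV 6 h mouse 2 the median was −0.02.

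The promoters of the 2 called genes are shown because CAGE tags mark starts of transcription, and so that their letters can be set beside those of the heat shock and immediate early genes below. The windows are RefSeq windows of 300 bases, 250 before and 50 after an annotated start, which were found once each on their mm9 chromosome (Zfp184, chr13:22036713-22037012, and Magoh, chr4:107552110-107552409, both on the plus strand). Capitals mark 2 kinds of motif, searched on both strands. One is a pair of heat shock units, TTCNNGAA or GAANNTTC, the letters that HSF1 is known to bind, and the other is TGACG or its reverse complement CGTCA, the core of a cAMP-response site.
Zfp184: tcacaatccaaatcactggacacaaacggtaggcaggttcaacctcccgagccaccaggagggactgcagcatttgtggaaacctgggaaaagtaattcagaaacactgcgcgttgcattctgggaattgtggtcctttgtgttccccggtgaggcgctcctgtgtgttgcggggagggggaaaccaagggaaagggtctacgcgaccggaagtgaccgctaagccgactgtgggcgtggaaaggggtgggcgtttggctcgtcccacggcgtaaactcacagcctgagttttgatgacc
Magoh: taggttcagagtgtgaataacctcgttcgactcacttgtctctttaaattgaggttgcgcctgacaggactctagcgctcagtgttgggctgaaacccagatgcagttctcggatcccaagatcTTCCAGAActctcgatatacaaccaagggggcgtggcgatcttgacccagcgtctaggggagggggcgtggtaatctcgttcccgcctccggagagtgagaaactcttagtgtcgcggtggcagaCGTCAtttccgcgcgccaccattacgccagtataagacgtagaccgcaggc

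The Zfp184 window held neither motif and is the first of 2 RefSeq windows of this gene, whereas that of Magoh held a heat shock pair and a cAMP-response core. A match describes letters only, and binding was not measured.

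After Zfp184 and Magoh, the genes with the lowest p among those that were lower, with at least 1 CPM on average and non-overlapping groups, were Chrne, Dnajb1, Trmt61b, Vps37b, Hspa1a, Abra, Nts, Zfp955a, Npas4, Map3k5, Taf13, Fgf5 and Gadd45g. None of these 13 passed the adjusted test, and their adjusted p values ran from 0.051 to 0.11. Chrne, a subunit of the muscle acetylcholine receptor, was nearly absent except in SE 6 h mice, with 16.4 and 16.9 CPM there, 0.470 and 0 CPM with LEV, and 0.210 and 0.10 CPM in pre-SE mice. Its logFC of −6.13 ± 0.77 depended on the small constant added to low values and ran from −7.91 to −3.86 over the settings, and a clone gene on the other strand overlaps it. Abra, an activator of actin-dependent transcription in muscle, was listed at 0.930 and 3.91 CPM in SE 6 h mice and at 0 in both SE + LEV 6 h mice, where 3 tags were worth 0.0997 and 0.285 CPM.

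Among these genes, Vps37b had close replicates in both groups, whereas the LEV-treated mice were further apart in Taf13, Trmt61b, Map3k5 and Fgf5. Vps37b, a subunit of the ESCRT-I sorting complex, stood at 201 and 222 CPM in SE 6 h mice and at 67.2 and 69.0 CPM in SE + LEV 6 h mice, next to 78.8 and 70.3 CPM in pre-SE mice (logFC −1.63 ± 0.22). Taf13, a subunit of the general transcription factor TFIID, stood at 49.6 and 55.5 CPM against 19.6 and 13.9 CPM with LEV. LEV-treated mice thus lay near the untreated level in both genes, although in Taf13 both were above both pre-SE mice (13.4 and 12.1 CPM). Trmt61b, a tRNA methyltransferase of mitochondria, stood at 111 and 165 CPM against 32.7 and 20.1 CPM (logFC −2.39 ± 0.31) and overlaps Spdya on the other strand. Map3k5, the stress kinase ASK1, stood at 89.7 and 128 CPM against 28.0 and 15.1 CPM (logFC −2.37 ± 0.38). Fgf5, a growth factor, stood at 6.64 and 7.88 CPM against 1.63 and 0.850 CPM (logFC −2.52 ± 0.41).

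Zfp955a, another zinc finger gene, had a different pattern. It stood at 30.3 and 5.96 CPM in SE 6 h mice and at 0.830 and 0.570 CPM in SE + LEV 6 h mice, whereas the 6 mice of the other groups ranged from 18.9 to 30.1 CPM. SE 6 h mouse 2 was thus also below both pre-SE mice (18.9 and 30.1 CPM), and both LEV-treated mice were lower still. Genes of this family can share near-identical sequence, and how tags that match several genes were counted is not given in the sources used here.

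**Figure D2:**
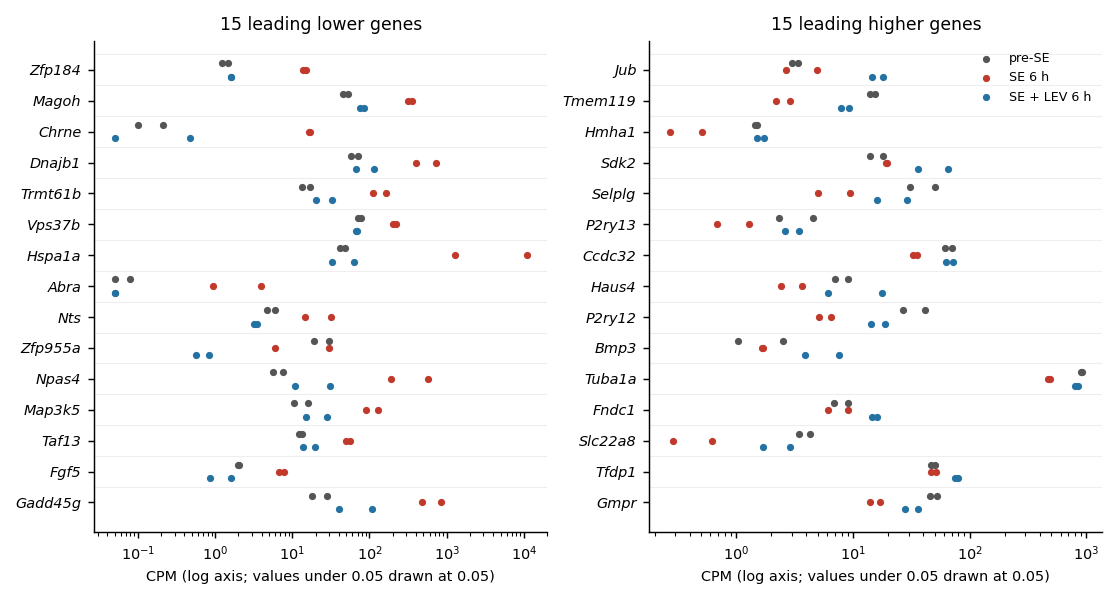
CPM of each mouse (log axis) for the 15 leading lower genes (left) and the 15 leading higher genes (right) at 6 h. Points are single mice, with pre-SE in grey, SE 6 h in red and SE + LEV 6 h in blue. Every SE 6 h point lies to the right of both SE + LEV 6 h points on the left side and to the left of them on the right side, which the rule that chose the genes required.

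In the plot of leading genes, the LEV-treated mice sit near or between the pre-SE and SE 6 h mice for most lower genes, while for the higher genes Jub, Sdk2, Bmp3, Fndc1 and Tfdp1 they lie above both other groups.

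Heat shock proteins and their cochaperones, which refold or hold damaged proteins, were lower as a group. Of 18 members tested, 10 were lower at an unadjusted p under 0.05 (55.6%, beside 3.42% of all genes) and 0 were higher. Both LEV-treated mice were below both SE 6 h mice in 12 of the 18 (66.7%, beside 13.4% of all genes), 6 were called lower by DESeq2, and 0 passed the adjusted limma test. The median logFC was −0.91, beside 0.04 over all genes. With each mouse left out in turn, 7 to 11 members were lower at an unadjusted p under 0.05 and the median ran from −1.21 to −0.73.

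Hspa1a, the inducible HSP70, had the lowest logFC of all genes tested. Its level was 10861 and 1278 CPM in SE 6 h mice, 63.3 and 32.7 CPM in SE + LEV 6 h mice, and 47.6 and 41.5 CPM in pre-SE mice. The SE 6 h mice differed from each other by nearly an order of magnitude, yet the lower of them remained far above both LEV-treated mice, which lay at the pre-SE level. The logFC was −6.35 ± 0.89 (limma, adjusted p = 0.067), a level 126-fold lower with LEV. Hspa1b, a near-identical neighbour, stood at 36.2 and 8.09 CPM against 2.76 and 1.71 CPM (logFC −2.92 ± 0.62), and tags may have been split between these genes in an unknown way. Dnajb1, the HSP40 that delivers substrates to HSP70, stood at 728 and 398 CPM against 116 and 66.3 CPM, beside 58.5 and 71.4 CPM in pre-SE mice (logFC −2.62 ± 0.34, adjusted p = 0.051). The promoter windows of Hspa1a (chr17:35109052-35109351, mm9, minus strand) and Dnajb1 (chr8:86131824-86132123, plus strand) are shown as those of the leading heat shock genes, with the same capitals as above.
Hspa1a: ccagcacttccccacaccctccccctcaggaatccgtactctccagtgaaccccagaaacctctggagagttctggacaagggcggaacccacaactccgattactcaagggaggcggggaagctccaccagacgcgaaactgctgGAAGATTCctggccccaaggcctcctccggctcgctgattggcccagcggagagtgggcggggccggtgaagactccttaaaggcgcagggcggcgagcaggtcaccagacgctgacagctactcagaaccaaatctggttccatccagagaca
Dnajb1: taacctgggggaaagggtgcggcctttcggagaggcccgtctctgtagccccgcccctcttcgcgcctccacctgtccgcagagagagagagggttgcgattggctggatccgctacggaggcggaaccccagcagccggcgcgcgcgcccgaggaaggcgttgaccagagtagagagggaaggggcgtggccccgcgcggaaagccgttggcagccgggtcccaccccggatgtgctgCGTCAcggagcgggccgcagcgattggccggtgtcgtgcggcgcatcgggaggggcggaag

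A heat shock pair was present in the Hspa1a window, and a cAMP-response core but no such pair in the Dnajb1 window, which is the first of 2 for that gene. The other heat shock genes with an unadjusted p under 0.05 were higher in SE 6 h mouse 1 than in mouse 2. Hsph1, a nucleotide exchange factor of HSP70, stood at 3806 and 692 CPM in SE 6 h mice and at 408 and 305 CPM with LEV (logFC −2.20 ± 0.63). Hspb1, a small heat shock protein, stood at 135 and 27.1 CPM against 8.21 and 7.87 CPM (logFC −2.90 ± 1.10). Hsp90aa1, the inducible HSP90, stood at 1159 and 717 CPM against 371 and 415 CPM (logFC −1.22 ± 0.34), and its constitutive relative Hsp90ab1 had a logFC of −0.21. Hspe1, Dnaja1, Hspa8 and Dnajb4 had logFC values of −1.22, −1.02, −1.30 and −0.81.

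Not all members shared this. Bag3, a cochaperone that links HSP70 to autophagy, stood at 74.6 and 46.6 CPM against 39.1 and 36.3 CPM (logFC −0.64 ± 0.42) and was above both pre-SE mice (9.93 and 10.3 CPM) in both LEV-treated mice. Hsf1, the heat shock factor itself, stood at 30.3 and 21.9 CPM against 26.4 and 27.4 CPM (logFC 0.06 ± 0.25). The summed level of the 18 genes was 25080 and 7807 CPM in SE 6 h mice, 5307 and 4083 CPM in SE + LEV 6 h mice, and 4934 and 4115 CPM in pre-SE mice, so that on this sum the LEV-treated mice lay at the pre-SE level and only the SE 6 h mice stood apart.

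**Figure D3:**
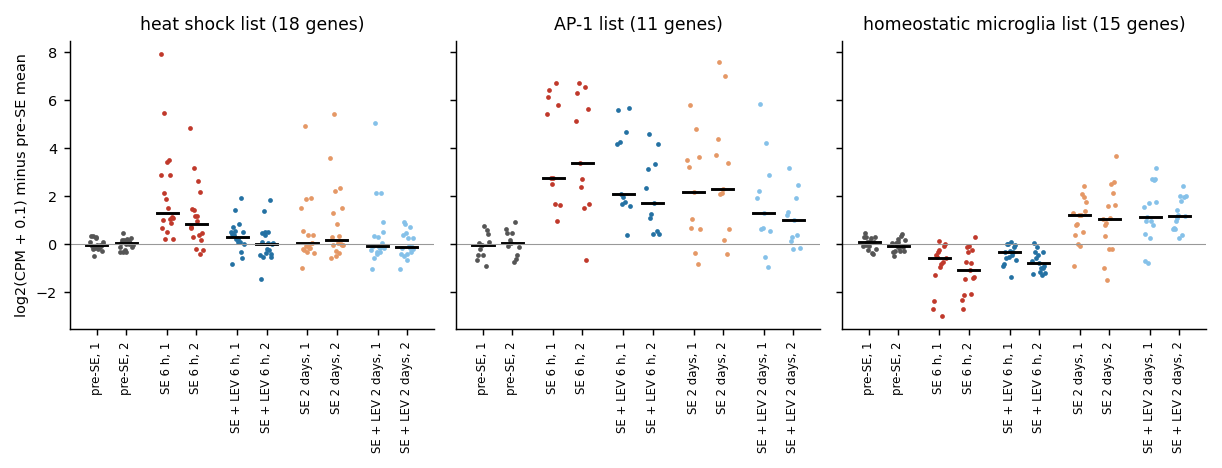
Level of each member of 3 gene lists in each of the 10 mice, as log2(CPM + 0.1) minus the pre-SE mean of that gene. Points are genes and bars are medians over the list. In the heat shock list, both SE + LEV 6 h mice have medians near the pre-SE level, in the AP-1 list they remain above it, and in the microglia list all 4 mice at 6 h lie below it.

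The plot of 3 lists by mouse shows that the lists took different positions between SE 6 h and pre-SE mice, which the median logFC values describe. For heat shock genes, the median was 1.23 for SE 6 h against pre-SE and 0.15 for SE + LEV 6 h against pre-SE. For AP-1 genes, the corresponding medians were 3.08 and 1.73. Each pair of medians rests on the same pre-SE mice.

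Transcription factors of the Egr and Nr4a families and other activity-regulated factors were lower in part. Of 23 tested, 10 were lower (43.5%, beside 3.42% of all genes) and 0 higher at an unadjusted p under 0.05. Both LEV-treated mice were below both SE 6 h mice in 14 (60.9%, beside 13.4% of all genes) and above them in 0. The median logFC was −0.87, and −0.43 without SE + LEV 6 h mouse 2. Npas4, a neuron-specific factor that is induced by calcium entry and shapes inhibitory synapses, led the list. It stood at 580.2 and 189 CPM in SE 6 h mice, at 30.6 and 10.7 CPM in SE + LEV 6 h mice, and at 5.55 and 7.54 CPM in pre-SE mice (logFC −4.18 ± 0.63, adjusted p = 0.075). Its promoter (chr19:4989922-4990221, mm9, minus strand) is shown as that of the leading immediate early gene and held 2 cAMP-response cores and no heat shock pair.
Npas4: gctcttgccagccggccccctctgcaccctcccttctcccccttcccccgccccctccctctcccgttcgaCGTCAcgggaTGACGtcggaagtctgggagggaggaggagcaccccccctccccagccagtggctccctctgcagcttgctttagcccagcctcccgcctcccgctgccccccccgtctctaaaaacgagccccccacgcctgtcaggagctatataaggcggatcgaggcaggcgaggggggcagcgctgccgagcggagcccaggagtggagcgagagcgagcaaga

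Egr2, a zinc finger factor, stood at 74.3 and 138 CPM against 28.1 and 9.77 CPM with LEV (logFC −2.60 ± 0.78), and Egr1 at 2259 and 1035 CPM against 835 and 169 CPM (logFC −2.02 ± 0.79). Nr4a1, an orphan nuclear receptor, stood at 883 and 355 CPM against 185 and 76.2 CPM (logFC −2.24 ± 0.62). In all 3, SE + LEV 6 h mouse 2 lay below mouse 1. Members of the same list that are induced by activity in neurons differed in this respect. Egr3 stood at 604 and 247 CPM without LEV and at 800.2 and 291 CPM with it (logFC 0.32 ± 0.48), against 81.4 and 70.7 CPM in pre-SE mice, and Myc and Ier5 had logFC values of 0.08 and 0.05. Egr3, Myc and Ier5 were picked out after their values were seen.

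AP-1 factors, which pair Fos and Jun proteins on the TGACTCA motif, had a median logFC of −1.49, which was the lowest of the lists with all mice but became −0.77 without SE + LEV 6 h mouse 2, where the reactive astrocyte list was lower (−0.90). Of 11 tested, 7 were lower at an unadjusted p under 0.05 (63.6%, beside 3.42% of all genes) and 0 higher. Both LEV-treated mice were below both SE 6 h mice in 8 (72.7%, beside 13.4% of all genes) and above them in 1, Jund (9.09%, beside 16.1%), and 0 were called by DESeq2. The edgeR exact test, which made more false calls than limma on simulated tags, called Fosl1 and Atf3 lower (adjusted p = 2.1e-04 and 1.2e-04). Fos stood at 276 and 228 CPM in SE 6 h mice, at 115 and 32.2 CPM in SE + LEV 6 h mice, and at 4.0 and 9.98 CPM in pre-SE mice (logFC −2.04 ± 0.56, adjusted p = 0.61). Fosl1 stood at 10.7 and 13.2 CPM against 2.29 and 2.94 CPM (logFC −2.15 ± 0.79, limma adjusted p = 0.95) and overlaps Ccdc85b on the other strand. Both genes thus stayed above both pre-SE mice under LEV, where Fosl1 had 0.0300 and 0.0200 CPM.

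Atf3, a stress-induced factor of the same family, stood at 67.5 and 59.5 CPM against 16.4 and 6.36 CPM (logFC −2.62 ± 0.91). Fosb stood at 586 and 645 CPM against 398 and 72.4 CPM (logFC −1.86 ± 0.69), so that here the LEV-treated mice differed more from each other than SE + LEV 6 h mouse 1 did from the SE 6 h mice. Jund, the member least tied to activity, stood at 571 and 518 CPM against 606 and 586 CPM. The number of AP-1 genes at an unadjusted p under 0.05 was 0 without SE + LEV 6 h mouse 2, 2 without SE 6 h mouse 1, 3 without SE 6 h mouse 2 and 8 without SE + LEV 6 h mouse 1. For the Egr and Nr4a list, the same counts were 2, 6, 9 and 12.

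Synaptic and secreted effectors of activity included 9 of 22 genes that were lower (40.9%, beside 3.42% of all genes) and 0 that were higher at an unadjusted p under 0.05. The median logFC was −0.82, and −0.38 without SE + LEV 6 h mouse 2. Gadd45g, a factor in DNA demethylation and growth arrest, stood at 835 and 483 CPM against 109 and 39.8 CPM (logFC −3.27 ± 0.54). Arc, which removes AMPA receptors from synapses, stood at 2129 and 789.6 CPM against 307 and 259.8 CPM (logFC −2.20 ± 0.52). Inhba, a subunit of activin, stood at 972 and 461 CPM against 208 and 132 CPM (logFC −2.02 ± 0.85), and Ptgs2, the inducible cyclooxygenase, at 468 and 170.3 CPM against 122 and 53.3 CPM (logFC −1.80 ± 0.61). All 4 genes were higher in both LEV-treated mice than in both pre-SE mice. The count of 9 became 3 without SE + LEV 6 h mouse 2 and 5 without SE 6 h mouse 2.

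In the feedback inhibitors of MAP kinase signalling, 5 of 14 genes were lower (35.7%, beside 3.42% of all genes) and 0 higher at an unadjusted p under 0.05, all 14 estimates lay below 0, and the median logFC was −0.75. Both LEV-treated mice were below both SE 6 h mice in 11 of the 14 (78.6%, beside 13.4% of all genes). The median was −0.36 without SE + LEV 6 h mouse 2. Dusp5, a nuclear ERK phosphatase, stood at 107 and 108 CPM against 38.5 and 37.9 CPM (logFC −1.50 ± 0.32, adjusted p = 0.25). Errfi1, an inhibitor of the EGF receptor, stood at 718 and 766 CPM against 467 and 183 CPM (logFC −1.34 ± 0.44), and Dusp14 at 86.7 and 68.7 CPM against 27.4 and 38.4 CPM (logFC −1.25 ± 0.35). The count of 5 became 2 without SE + LEV 6 h mouse 2 and 3 without SE 6 h mouse 2.

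Of 17 neuropeptide genes, 6 were lower (35.3%, beside 3.42% of all genes) and 0 higher at an unadjusted p under 0.05. The median logFC was −0.54 and lay between −0.36 and −0.29 without SE 6 h mouse 2 or either SE + LEV 6 h mouse. Crh, which encodes corticotropin-releasing hormone and in the hippocampus is made by interneurons, stood at 46.3 and 69.2 CPM in SE 6 h mice, at 5.62 and 5.12 CPM in SE + LEV 6 h mice, and at 5.72 and 3.27 CPM in pre-SE mice. The logFC was −3.38 ± 0.57 (limma, adjusted p = 0.13), a level 10.8-fold lower with LEV. Nts, which encodes neurotensin, stood at 14.6 and 31.5 CPM against 3.52 and 3.23 CPM (logFC −2.63 ± 0.39, adjusted p = 0.073), slightly below the 4.76 and 5.99 CPM of pre-SE mice. Both peptides thus stood at the untreated level in the LEV-treated mice.

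Scg2, the precursor of secretoneurin, stood at 973 and 915 CPM against 451 and 327 CPM (logFC −1.30 ± 0.39), and Tac1, the precursor of substance P, at 15.9 and 24.9 CPM against 7.24 and 9.68 CPM (logFC −1.24 ± 0.42). Pdyn and Sst had logFC values of −1.03 and −0.82. In contrast, the estimates of Npy, Penk and Cck were close to 0 (0.05, 0.08 and 0.18), which are given although they fall outside the rule for named genes. The count of 6 became 3 without SE 6 h mouse 2 and 4 without either SE + LEV 6 h mouse.

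Cytokines and chemokines, the signals that recruit and activate glia and leukocytes, were lower in 10 of 32 genes tested (31.2%, beside 3.42% of all genes) and higher in 0 at an unadjusted p under 0.05, with a median logFC of −0.60. Il1rn, the natural antagonist of the IL-1 receptor, stood at 11.7 and 2.74 CPM in SE 6 h mice, at 0.130 and 0.280 CPM in SE + LEV 6 h mice, and at 0.0300 and 0.0400 CPM in pre-SE mice (logFC −4.29 ± 0.76, adjusted p = 0.14). Il6 stood at 2.34 and 1.16 CPM against 0.230 and 0.0900 CPM (logFC −2.81 ± 0.56, adjusted p = 0.19) and was listed at 0 in both pre-SE mice. The LEV-treated values of both genes were at or near the limit of detection.

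Ccl3, a chemokine for monocytes that microglia release, stood at 35.4 and 14.7 CPM against 7.31 and 1.80 CPM (logFC −2.61 ± 0.80), and Cxcl2, a chemokine for neutrophils, at 1.92 and 3.56 CPM against 0.530 and 0.280 CPM (logFC −2.47 ± 0.51). Ccl4, Ccl9, Osm, Ccl11, Cxcl1 and Csf1 were the other 6, with logFC values from −2.14 to −1.11. Other members had estimates nearer to 0 and overlapping groups or larger errors, as with Tnf (−0.63), Ccl2 (−0.89), Il1b (−0.95) and Il1a (−0.18). The count of 10 became 6 without SE + LEV 6 h mouse 2 and lay between 7 and 10 without any other mouse.

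Receptors of cytokines and regulators of NF-kappaB had a smaller share, with 2 of 29 lower and 0 higher at an unadjusted p under 0.05 (6.90%, beside 3.42% of all genes). The pair consisted of Cd14, a coreceptor for bacterial lipopolysaccharide (34.3 and 29.1 CPM against 16.9 and 5.60 CPM, logFC −1.69 ± 0.63), and the TNF receptor Tnfrsf1b (−0.91). Of 12 genes of prostaglandin synthesis and reception, Ptgs2 and the receptor Ptger1 were lower (16.7%, beside 3.42% of all genes), the latter near the limit of detection. Ptgds was higher (8.33%, beside 1.16%). Ptgds, a prostaglandin D synthase that is abundant in meninges and choroid plexus, stood at 1108 and 1822 CPM in SE 6 h mice and at 3116 and 2896 CPM in SE + LEV 6 h mice (logFC 1.08 ± 0.47, adjusted p = 1), above the 618 and 1218 CPM of pre-SE mice. The pair of lower receptors became 1 gene without SE + LEV 6 h mouse 1 or either SE 6 h mouse, and the pair of lower prostaglandin genes became 1 without SE + LEV 6 h mouse 2 or SE 6 h mouse 1.

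Among secreted protease inhibitors and proteases, 7 of 26 were lower (26.9%, beside 3.42% of all genes) and 0 higher at an unadjusted p under 0.05. The median logFC was −0.21, and −0.58 without SE 6 h mouse 1 and −0.38 without SE + LEV 6 h mouse 1. Serpinb2, an inhibitor of plasminogen activators, stood at 36.2 and 24.8 CPM against 0.370 and 1.04 CPM (logFC −5.36 ± 2.11), with a large error because the SE 2 days mice, which share the estimate of the spread, stood at 0.130 and 112 CPM. Timp1, an inhibitor of matrix metalloproteinases, stood at 14.8 and 13.8 CPM against 1.93 and 3.89 CPM (logFC −2.34 ± 0.84), and overlaps Syn1. Plau, a plasminogen activator, stood at 6.25 and 4.25 CPM against 1.16 and 1.61 CPM. The groups at 6 h did not overlap in any of these 3 genes. The count of 7 became 3 without SE + LEV 6 h mouse 1 or SE 6 h mouse 2 and 4 without SE + LEV 6 h mouse 2.

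Genes of reactive astrocytes had a median logFC of −1.05, with 7 of 25 lower (28.0%, beside 3.42% of all genes) and 1 (Cp, ceruloplasmin) higher (4.0%, beside 1.16%) at an unadjusted p under 0.05, and with both LEV-treated mice below both SE 6 h mice in 15 (60.0%, beside 13.4%). This list shares Timp1, Hspb1, Ptgs2 and Cd14 with lists described above. Of the members it does not share with them, Vim, an intermediate filament of reactive cells, stood at 90.7 and 90.8 CPM against 49.2 and 42.3 CPM (logFC −0.99 ± 0.43). Gfap, the defining filament of astrocytes, stood at 394 and 783 CPM against 519.9 and 473 CPM (logFC −0.16 ± 0.36), and its groups overlapped. Lcn2, which was picked out after its values were seen, stood at 9.81 and 14.7 CPM against 76.1 and 8.16 CPM. The count of 7 became 1 without SE + LEV 6 h mouse 2, 2 without SE 6 h mouse 2 and 3 without SE 6 h mouse 1. In homeostatic astrocyte genes, 0 of 16 were lower or higher and the median was 0.02.

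In endothelial and blood-brain barrier genes, 1 of 22 was lower (4.55%, near the 3.42% of all genes) and 0 higher at an unadjusted p under 0.05. That gene was Cdh5, the cadherin of endothelial junctions, with 17.6 and 19.5 CPM in SE 6 h mice, 13.1 and 8.73 CPM in SE + LEV 6 h mice, and 4.41 and 4.06 CPM in pre-SE mice (logFC −0.79 ± 0.30, adjusted p = 0.97). Its level under LEV thus lay between the other groups. The tight junction gene Cldn5 had a logFC of −0.12. Of 16 angiogenesis signals, 3 were lower (18.75%, beside 3.42% of all genes), namely the matrix protein Thbs1 (37.2 and 36.9 CPM against 8.24 and 4.55 CPM, logFC −2.58 ± 1.05), the peptide Apln (−1.09) and the vasoconstrictor Edn1 (−1.07), whereas Vegfa had a logFC of −0.27.

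In other stress and regulatory lists, 6.25% to 21.1% of genes were lower at an unadjusted p under 0.05, beside 3.42% of all genes, and 0 were higher. Of 19 genes of endoplasmic reticulum and integrated stress, 4 were lower (21.1%), namely Atf3, Chac1, Hmox1 and Ppp1r15a. Both LEV-treated mice were below both SE 6 h mice in 9 of the 19 (47.4%, beside 13.4% of all genes) and above them in 0. By contrast, 2 transcription factors of the unfolded protein response had estimates near 0, −0.04 for Ddit3 and 0.11 for Xbp1. The count of 4 became 0 without SE + LEV 6 h mouse 2 and 1 without SE 6 h mouse 1. Of 19 growth arrest and apoptosis genes, 4 were lower (21.1%). Both LEV-treated mice were below both SE 6 h mice in 9 of the 19 (47.4%, beside 13.4% of all genes) and above them in 2 (10.5%, beside 16.1%). The 4 were led by Btg2, an antiproliferative gene with 80.6 and 85.8 CPM against 21.7 and 21.0 CPM (logFC −1.96 ± 0.43), together with Cdkn1a (−0.95), Phlda1 (−0.92) and Mcl1 (−0.80). Of 26 glucocorticoid targets, 3 were lower (11.5%), and these (Errfi1, Dusp1 and Cdkn1a) also belong to lists above, whereas Fkbp5 and Tsc22d3, which respond to the hormone, had logFC values of 0.43 and −0.02. In the clock list, Nfil3 was the only one of 16 that was lower (6.25%), with 72.1 and 99.4 CPM against 37.8 and 17 CPM (logFC −1.74 ± 0.57). In cholesterol synthesis, 3 of 16 were lower (18.75%), among them Dhcr7 (−0.77) and Cyp51 (−0.68). In 16 metallothionein and antioxidant genes, Hmox1 and Txnrd1 were lower (12.5%). Such small counts, and the medians of these lists, moved with single mice. Without SE + LEV 6 h mouse 2, the counts were 2 for growth arrest, 1 for angiogenesis and 0 for the glucocorticoid, clock, cholesterol and antioxidant lists. Without SE 6 h mouse 2, they were 2 for growth arrest, 1 for the angiogenesis, glucocorticoid, cholesterol and antioxidant lists and 0 for the clock and endothelial lists. Without SE 6 h mouse 1, they were 2 for the endothelial, 1 for the antioxidant and 0 for the cholesterol list. Without SE + LEV 6 h mouse 1, they were 5 for the glucocorticoid, 2 for the clock and 1 for the cholesterol and antioxidant lists.

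Some homeostatic microglia genes stood higher with LEV. Of 15 tested, 4 were higher (26.7%, beside 1.16% of all genes) and 0 were lower, and 4 had both LEV-treated mice above both SE 6 h mice while 4 had them below (26.7% each, beside 16.1% and 13.4% of all genes). Tmem119, a membrane protein of resident microglia, stood at 2.21 and 2.88 CPM in SE 6 h mice, at 7.84 and 9.20 CPM in SE + LEV 6 h mice, and at 14.1 and 15.5 CPM in pre-SE mice (logFC 1.71 ± 0.34, adjusted p = 0.19). Selplg, the ligand of P-selectin, stood at 4.97 and 9.39 CPM against 29.0 and 16.1 CPM (logFC 1.65 ± 0.42). P2ry12, the ADP receptor by which microglial processes find injured cells, stood at 6.51 and 5.14 CPM against 18.7 and 14.1 CPM, beside 41.5 and 26.9 CPM in pre-SE mice (logFC 1.48 ± 0.42). Its promoter window (chr3:59066858-59067157, mm9, minus strand) is shown as an example from the higher genes and held a heat shock pair and no cAMP-response core.
P2ry12: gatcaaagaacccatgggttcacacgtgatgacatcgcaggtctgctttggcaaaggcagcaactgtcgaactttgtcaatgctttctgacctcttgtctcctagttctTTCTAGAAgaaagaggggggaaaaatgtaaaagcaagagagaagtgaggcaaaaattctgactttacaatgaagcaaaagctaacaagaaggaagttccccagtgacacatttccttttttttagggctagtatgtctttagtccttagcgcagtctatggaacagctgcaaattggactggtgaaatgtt

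P2ry13, a related receptor, stood at 1.28 and 0.690 CPM against 2.62 and 3.42 CPM (logFC 1.57 ± 0.43), and both P2ry genes lie within Med12l on the other strand. The LEV-treated mice lay between SE 6 h and pre-SE mice in Tmem119, Selplg and P2ry12. Other microglial genes differed less, in either direction. The logFC was 0.49 for Cx3cr1, 0.33 for Csf1r and 0.17 for Aif1, and the lowest of the list was −0.80. Estimates of 4 members lay below 0 and of 11 above it, and the median of the list was 0.22. Its summed level was 332 and 314 CPM in SE 6 h mice, against 362 and 323 CPM in SE + LEV 6 h mice. With each mouse left out, 4 or 5 members were higher at an unadjusted p under 0.05, whereas the median of the list was 0.04 without SE + LEV 6 h mouse 1 and 0.62 without SE + LEV 6 h mouse 2. In whole tissue, fewer cells of a type and less RNA per cell cannot be told apart.

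The other leading higher genes were Jub, Hmha1, Sdk2, Ccdc32, Haus4, Bmp3, Tuba1a, Fndc1, Slc22a8, Tfdp1 and Gmpr, and the predicted gene Gm9581 was passed over. Jub, which encodes the LIM protein ajuba of cell contacts, had the lowest p. It stood at 4.91 and 2.67 CPM in SE 6 h mice, at 14.5 and 18.1 CPM in SE + LEV 6 h mice, and at 3.41 and 3.02 CPM in pre-SE mice (logFC 2.13 ± 0.36, adjusted p = 0.12). It was thus higher in both LEV-treated mice than in any of the other 8, whose highest value was 7.41 CPM. Sdk2, an adhesion molecule of synaptic layers, followed the same order with 19.4 and 19.6 CPM against 35.7 and 65.6 CPM (logFC 1.31 ± 0.32). Bmp3, a secreted BMP family member, stood at 1.67 and 1.71 CPM against 3.89 and 7.59 CPM (logFC 1.63 ± 0.47).

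In a further group, the SE 6 h mice were the ones that stood apart. Tuba1a, the major neuronal alpha-tubulin, stood at 469.9 and 492 CPM in SE 6 h mice, at 848 and 795 CPM in SE + LEV 6 h mice, and at 895 and 913 CPM in pre-SE mice (logFC 0.77 ± 0.23). Ccdc32 stood at 32.8 and 35.5 CPM against 62.6 and 71.6 CPM, beside 71.0 and 61.6 CPM in pre-SE mice (logFC 0.97 ± 0.27). Hmha1, a GTPase-activating protein of blood-derived cells, stood at 0.510 and 0.270 CPM against 1.73 and 1.52 CPM (logFC 1.86 ± 0.39). The LEV-treated mice were near the untreated level in these 3 genes. DESeq2 called 6 genes higher, namely Jub, Tmem119, Sdk2, Haus4 and the predicted genes Gm9581 and Gm13736, with adjusted p values of 1.5e-04 for Jub and 0.0061 for Tmem119.

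Synaptic vesicle genes include the binding site of LEV. Of 22 tested, 1 was lower (Syt4, 4.55%, beside 3.42% of all genes) and 0 were higher at an unadjusted p under 0.05, with a median logFC of 0.14. Both LEV-treated mice were above both SE 6 h mice in 9 of the 22 (40.9%, beside 16.1% of all genes) and below both in 3, and 18 estimates lay above 0. The median was 0.06 without SE 6 h mouse 2. Sv2a stood at 129 and 102 CPM in SE 6 h mice and at 143 and 129 CPM in SE + LEV 6 h mice, with overlapping groups (logFC 0.24 ± 0.21, adjusted p = 1), and its relative Sv2b at 409.9 and 347 CPM against 416 and 559.7 CPM. Syt4, an activity-induced synaptotagmin, stood at 496 and 307 CPM against 171 and 113 CPM (logFC −1.49 ± 0.46). Of the other receptor and channel lists, 0 of 17 GABA genes and 0 of 22 voltage-gated channel genes were lower or higher. Of 22 glutamate receptor subunits, Grin2d was higher (4.55%, beside 1.16% of all genes), with 0.900 and 0.820 CPM against 1.89 and 1.90 CPM (logFC 1.06 ± 0.37).

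For 5 genes of the vesicle, GABA, channel and clock lists, picked after their values were seen, single libraries of other groups stood high as well. Syt7, Slc6a11, Cacna1b, Hlf and Tef were high in both SE + LEV 6 h mice but also in pre-SE mouse 1 and in SE + LEV 2 days mouse 2, a pattern that Sv2b did not share. For example, Syt7 stood at 178 and 214 CPM in SE + LEV 6 h mice, at 159 and 77.4 CPM in SE 6 h mice, at 209 CPM in pre-SE mouse 1 and at 185 CPM in SE + LEV 2 days mouse 2, and at 95.6 CPM in pre-SE mouse 2. As in Syt7, SE 6 h mouse 1 stood above SE 6 h mouse 2 in Slc6a11 (109 and 44.4 CPM) and Tef (162 and 104 CPM). These mice differed less in Cacna1b (51.3 and 44.4 CPM) and Hlf (59.6 and 47.9 CPM). The part of this feature in the LEV comparison was not tested.

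Lists of housekeeping and other cell type genes held few genes past the test. At an unadjusted p under 0.05, 0 genes were lower or higher among 22 ribosomal proteins (median logFC −0.02), 21 respiratory chain genes (0.13), 20 glycolysis genes (0.11), 15 oligodendrocyte genes (0.04) and 5 choroid plexus genes. Plk5, 1 of 14 neuron markers, was higher (7.14%, beside 1.16% of all genes, list median 0.21). The choroid plexus median was −0.11 and ran from −2.96 without SE 6 h mouse 1 to 1.63 without SE 6 h mouse 2. Of 14 common reference genes, 1 was lower (7.14%, beside 3.42% of all genes), whereas Actb had a logFC of −0.01 and Gapdh −0.18. In the 7 leukocyte and blood genes tested (median −0.41, and 0.24 without SE + LEV 6 h mouse 2), Mpo (3.4 and 1.16 CPM against 0.0700 and 0.280 CPM) and Hbb-b1 were lower (28.6%, beside 3.42% of all genes) and Ptprc, the common leukocyte antigen, had a logFC of 0.58. That pair became 1 gene without SE + LEV 6 h mouse 1 or SE 6 h mouse 2 and 3 genes without SE + LEV 6 h mouse 2. Medians below 0.1 in size carry no direction, because rescaling alone took the median of all genes from 0.04 to −0.01. The medians of the ribosomal, respiratory chain, glycolysis, oligodendrocyte and neuron marker lists each changed sign without at least 1 of the 4 mice.

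**Figure D4:**
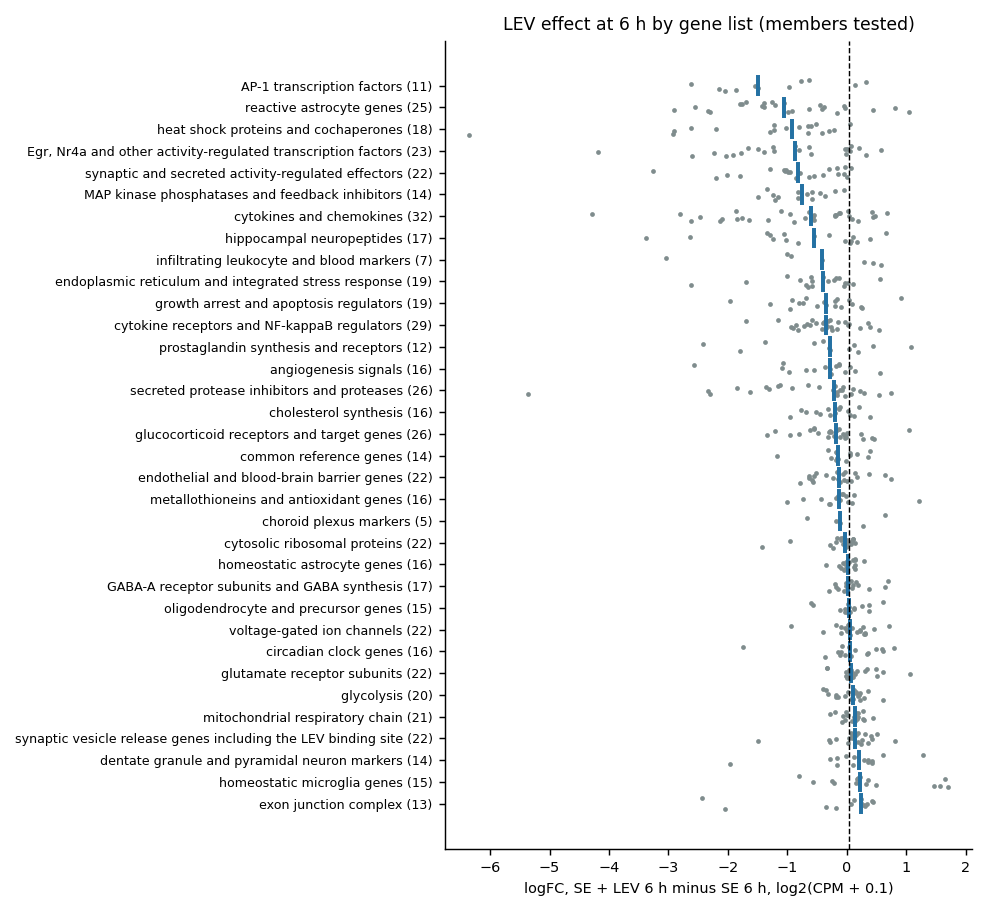
LEV effect at 6 h by gene list, with logFC (SE + LEV 6 h minus SE 6 h) on the x axis and the 34 lists in order of their median on the y axis, the number of genes tested in brackets. Grey points are genes, blue bars are list medians and the dashed line is the median of all genes, 0.04. AP-1, reactive astrocyte and heat shock lists have medians of −1.49, −1.05 and −0.91, whereas most lists lie near the dashed line.

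The plot of lists shows that the lower lists spread widely within themselves, in that most hold members near 0 next to members with a logFC under −2. The 34 lists held 624 genes tested in all.

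Promoter letters were then counted over the genes that stood lower or higher. RefSeq windows were matched to 11396 of the 15851 genes tested, to 349 of the 542 lower and to 134 of the 184 higher genes, and a gene was counted if any of its windows held a motif. A cAMP-response core was present in 41.8% of the matched lower genes, 23.1% of the higher genes, 34.7% of all genes tested and 20.8% of all 32851 RefSeq windows. The full palindromic site, TGACG followed by TCA, was present in 8.6% of lower, 2.24% of higher and 3.62% of all genes tested, and the AP-1 motif TGACTCA in 7.45%, 2.99% and 4.44%. Shares of these 3 motifs were thus above those of all genes tested in the lower genes and below them in the higher genes. All RefSeq windows held the full site in 1.79% and the AP-1 motif in 5.20%. Shares of all RefSeq windows count single windows, whereas those of genes count any window of a gene, so the 2 kinds of share are not directly comparable. These shares were not tested, and TGACG is part of the full site.

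Either heat shock pair was present in 16.3% of lower, 13.4% of higher and 13.8% of all genes tested (15.1% of all windows). Of the 13 heat shock genes with a window, 10 held such a pair, which describes a known property of this family. Among the 13 leading lower genes with a window, Magoh, Hspa1a and Fgf5 held a pair and Magoh, Dnajb1, Npas4, Nts, Taf13 and Trmt61b held a core. Among the 11 leading higher genes with a window, P2ry12, P2ry13 and Fndc1 held a pair and Tfdp1 held a core.

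The LEV comparison at 6 h was finally set beside the other groups. Genes lower with LEV at an unadjusted p under 0.05 had a median logFC of 1.43 for SE 6 h against pre-SE and of 0.25 for SE + LEV 6 h against pre-SE. Genes higher with LEV had medians of −0.74 and 0.23. These comparisons share the SE 6 h and SE + LEV 6 h mice with the comparison that chose the genes, so the values are a description.

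The comparison at 2 days used other mice throughout, although the spread behind the p-values at both times was estimated over all 10 libraries. There, 0 genes were called by limma, with 220 lower and 208 higher at an unadjusted p under 0.05. Of the 542 genes lower at 6 h, both SE + LEV 2 days mice were below both SE 2 days mice in 166 (30.6%, beside 12.2% of all genes) and above them in 39 (7.20%, beside 15.2% of all genes). Of the 184 genes higher at 6 h, 36 (19.6%) were above in the same way and 31 (16.8%) below. The median logFC at 2 days was −0.23 for the lower genes, 0.07 for the higher genes and 0.04 for all genes.

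The families differed in what they showed at 2 days, without a test of the families themselves. AP-1, effector and Egr and Nr4a lists had medians of −1.11, −0.94 and −0.64 at 2 days, next to −1.49, −0.82 and −0.87 at 6 h. The reactive astrocyte list had −1.04 and the cytokine list −0.71. In the astrocyte list, both SE + LEV 2 days mice were below both SE 2 days mice in 6 of 25 genes (beside 12.2% of all genes), against 15 at 6 h. Its summed level overlapped between groups at 2 days, with 4143 and 6694 CPM in SE 2 days mice and 5448 and 3006 CPM in SE + LEV 2 days mice. The heat shock list had −0.27, beside −0.91 at 6 h. In the list of 15 leading lower genes, Hspa1a, Npas4 and Gadd45g had logFC values at 2 days of −3.16 ± 0.89, −2.71 ± 0.63 and −2.13 ± 0.54, whereas the other 12 lay between −0.46 and 0.52.

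The difference between the LEV effects at 2 days and 6 h was tested with an interaction term, and 0 genes passed (lowest adjusted p = 0.62, for Zfp184). At an unadjusted p under 0.05, the effect at 2 days was above that at 6 h in 251 genes and below it in 126. For Zfp184, the logFC at 2 days was 0.30 ± 0.35, against −3.08 at 6 h (unadjusted p of the difference 3.9e-05). For Magoh, it was −0.46 ± 0.23 against −2.05 (unadjusted p 6.1e-04). Thus for the 2 called genes the estimate at 2 days was smaller in size, without passing the adjusted test of the difference. Both genes were chosen by their result at 6 h, and the difference contains that same estimate. Such a choice favours a smaller estimate at 2 days and a low unadjusted p, so these values are a description.

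**Figure D5:**
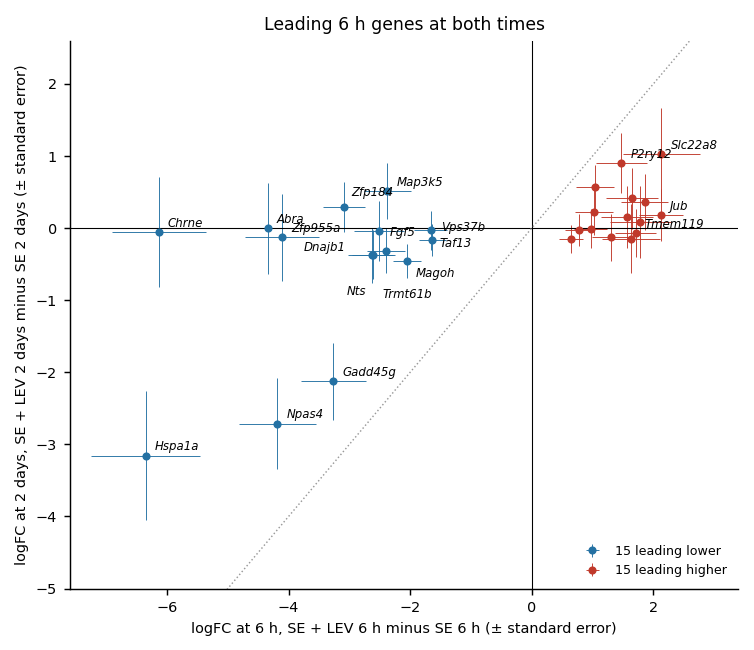
LogFC at 6 h (x axis) and at 2 days (y axis) for the 15 leading lower (blue) and 15 leading higher (red) genes, with standard errors as bars. Genes were chosen by the p and the non-overlapping groups of the comparison at 6 h, and the spread behind that p was estimated over all 10 libraries. The dotted line marks equal values. Hspa1a, Npas4 and Gadd45g lie below −2 at 2 days, and the other 12 lower genes lie between −0.46 and 0.52.

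In the plot of both times, the leading higher genes had logFC values at 2 days between −0.15 and 1.03, the highest of which belonged to Slc22a8, an organic anion transporter, and P2ry12 (0.90 ± 0.42).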

How the data were processed

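Hippocampal RNA of 10 mice was profiled by CAGE. The authors trapped capped 5′ ends after random-primed cDNA synthesis, aligned tags to mm9 with BWA 0.7.17 and HISAT2 2.0.5, clustered them with RECLU and deposited CPM values per gene (tags per 1000000 tags of the library). How clusters were assigned to genes, and whether strand was used, is not given in the sources used here. Per the deposited table, 15900 genes are listed in 2 libraries per group, and a library of fewer tags has less precise values.

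The 15851 genes that reached 0.1 CPM in 2 or more libraries were analysed as log2(CPM + 0.1) with limma 3.58.1 (R 4.3.3), with a mean-variance trend and 5 group means over all 10 libraries, Benjamini-Hochberg adjustment and a threshold of 0.05. Nothing says that the numbered samples share more than a group, and p-values measure the spread between these mice only. In each library 100% of CPM values were whole multiples of 1 tag within 0.005 CPM, so tags were recovered and tested with DESeq2 1.42.0 and edgeR 4.0.16 as alternatives. Other alternatives were TMM and median-of-ratios rescaling, pseudocounts of 0.01, 0.5 and 1, filters of 1 CPM or none, no trend, only the 2 groups compared, a replicate block and each mouse left out. The scripts were tested on simulated data.

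Genes are named if they passed the adjusted test, if they were among the 15 of lowest p per direction with at least 1 CPM on average, non-overlapping groups and no clone name, if they were among the 4 members of largest absolute logFC in a list (at least 0.5 CPM in a group, non-overlapping groups), or if the study's design pointed to them (Fosl1, Fos, Il6, Cdh5, Gfap, Sv2a, Magoh and Zfp184). Other list members are given to show the spread within a list and were picked after their values were seen. The comparison and the 34 gene lists were chosen with earlier results of these data known. Promoter windows are RefSeq sequences (GRCm38.p6), placed on mm9 by exact match. Some genes that these rules name are not reported here.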

Additional observations from a re-analysis of the deposited data

How the results depend on the processing

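The number of genes that fell at an adjusted p of at most 0.05 was 2 in the fit described, 4 with TMM or median-of-ratios rescaling, 8 and 9 with pseudocounts of 0.5 and 1, and 69 and 118 with DESeq2 and the edgeR exact test on recovered tags. It was 1 without the mean-variance trend and 0 with the edgeR quasi-likelihood test, with only the 2 groups compared, with a pseudocount of 0.01 and with the replicate block, and it ran from 0 to 9 with a mouse left out. The number that rose was 0 in the fit described, 6 with DESeq2, 6 with the exact test and 0 to 2 with a mouse left out. At an unadjusted p under 0.05, leaving out a mouse gave 353 to 599 lower and 118 to 414 higher genes. Genes whose effect was higher at 2 days than at 6 h numbered 0 at an adjusted p of at most 0.05, 3 with DESeq2, 2 without the trend, and 1 and 2 with pseudocounts of 0.5 and 1. The cause of these changes was not tested.

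Of 2276 values of single named genes under these alternatives, 2168 kept their direction and their side of the threshold, 17 (Zfp184 and Magoh) missed it, 85 (45 genes) passed it and 6 turned. Gfap had −0.66 without SE 6 h replicate 1 and turned to 0.33 without replicate 2, and Cacna2d1, a calcium channel subunit with an estimate close to 0, turned to −0.0194 with DESeq2, −0.0208 and −0.0124 with median-of-ratios and TMM rescaling, and −0.0110 and −0.0111 with the exact and quasi-likelihood tests. Of 578 list medians, 558 moved by less than the spread between replicates and 20 (13 lists) moved by more.

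Same-numbered mice of the 2 groups at 6 h deviated together only weakly (correlation of deviations 0.15, and −0.17 at 2 days), so the numbers are treated as names. The fit with the replicate block called 0 genes lower and 0 higher. With 1 mouse left out, the remaining mouse of that group was assumed to vary like the other groups. Depth limits genes under about 0.3 CPM, where values rest on a few tags.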

Other observations

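Genes of meningeal fibroblasts were gathered in a list drawn up after their values had been seen, which includes Ptgds. All 18 estimates lay above 0, both SE + LEV 6 h mice were above both SE 6 h mice in 10 of the 18 (55.6%, beside 16.1% of all genes), and 2 reached an unadjusted p under 0.05, with a median logFC of 0.74, which ran from 0.42 to 1.07 with a mouse left out. The summed level of these genes was 1319 and 2238 CPM in SE 6 h mice, against 3592 and 3249 CPM in SE + LEV 6 h mice, and 748 and 1662 CPM in pre-SE mice. At 2 days the median was −0.73. Ptgds supplied most of these sums. Without it, the other 17 genes summed to 211 and 416 CPM in SE 6 h mice, against 476 and 352 CPM in SE + LEV 6 h mice, so that the groups overlapped, and their median logFC was 0.73. The part of this tissue in the level of Ptgds was not tested. The summed level of the 5 choroid plexus genes was 8.82 and 3991 CPM in SE 6 h mice, against 864 and 39.8 CPM in SE + LEV 6 h mice, with no order between the groups.

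Slc6a11, a GABA transporter of astrocytes, stood at 109 and 44.4 CPM in SE 6 h mice and at 116 and 109.7 CPM in SE + LEV 6 h mice. In the other groups it stood at 134 and 43.7 CPM in pre-SE mice, 23.0 and 19.7 CPM in SE 2 days mice, and 14.6 and 109.9 CPM in SE + LEV 2 days mice. Mice of the same group thus differed more than 2-fold in the pre-SE, SE 6 h and SE + LEV 2 days groups, but not in the other groups.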
